A study of Homo sapiens with 12 samples.

Results

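The levels of 9 genes whose products mark breast stem, progenitor and mesenchymal cells were followed across the 4 groups of the study: CD44, CD24, PROCR, ALDH1A3, ALDH1A1, EPCAM, THY1, NT5E and ANPEP. They were chosen by name and found in all 4 deposited tables, 9 of 26364 genes. The cells were HMLE, an immortalised line of human mammary epithelial cells, grown in the same medium in every group. The 4 groups, each of 3 biological replicates, were HMLE-Twist cells with 0.2 uM salinomycin for 24 hours, HMLE-Twist cells with the DMSO vehicle (mock), HMLE-pBp cells with the same salinomycin treatment, and HMLE-pBp cells with the vehicle. HMLE-Twist is labelled as having passed through an epithelial-mesenchymal transition (EMT) and HMLE-pBp as not having done so. Each is 1 cell line, so the replicates stand for cultures of that line and not for separate donors.

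CD44 binds hyaluronan at the cell surface, and breast cancer cells with high CD44 and low CD24 are widely sorted as a stem-like fraction. CD24 and THY1 (CD90) are small glycoproteins, and with NT5E (CD73) they sit in the membrane through a glycosylphosphatidylinositol (GPI) lipid anchor. PROCR is the endothelial protein C receptor, which marks multipotent stem cells in the mouse mammary gland. ALDH1A3 and ALDH1A1 are enzymes of the cytosol, not surface proteins, that oxidise retinaldehyde to retinoic acid and give breast stem cell assays their aldehyde dehydrogenase signal. EPCAM is an adhesion protein of epithelial cells. NT5E makes adenosine from AMP outside the cell, and ANPEP (CD13, aminopeptidase N) trims peptides there. THY1, NT5E and ANPEP are used to mark mesenchymal stromal cells.

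Levels are FPKM (fragments per kilobase of gene length, scaled by library size) rebuilt on 1 scale from the reads behind the tables, and a log2 fold change is taken on log2(FPKM + 1). A gene is called where its limma p-value, adjusted by the Benjamini-Hochberg method over all 11583 genes tested, is under 0.05. The libraries held 17.9 to 26.8 megareads. The labels were met by the marker genes: TWIST1 had 693 to 1163 FPKM in HMLE-Twist with salinomycin, 495 to 1091 FPKM in HMLE-Twist mock, 1.79 to 2.31 FPKM in HMLE-pBp with salinomycin and 2.42 to 2.49 FPKM in HMLE-pBp mock. The summed level of 9 general epithelial genes, EPCAM among them, was 1.60 to 2.07 FPKM in HMLE-Twist with salinomycin and 2.0 to 2.62 FPKM in HMLE-Twist mock. In HMLE-pBp that sum was 541 to 601 FPKM with salinomycin and 599 to 716 FPKM in mock. Endothelial genes summed to at most 1.82 FPKM in any library.

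The lines differed at every marker that could be tested. In mock-treated cells 8 of the 9 markers passed the filter on low values and all 8 were called between the lines, 2 higher and 6 lower in HMLE-Twist, where 73.5% of all genes tested were called, 36.3% higher and 37.1% lower. CD24, ALDH1A3 and EPCAM passed that filter only through HMLE-pBp, and ANPEP only through HMLE-Twist. The filter thus favoured a difference for these genes, and the count is a description. The libraries of the lines did not overlap for these 8 genes, which was also so for 74.0% of all genes.

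CD44 was present in both lines and lower in HMLE-Twist. Mock-treated HMLE-Twist libraries had 75.0, 52.2 and 64.5 FPKM, and mock-treated HMLE-pBp libraries 198, 224 and 221 FPKM. Every HMLE-pBp library lay above every HMLE-Twist library, and the log2 fold change was -1.74 (SE 0.128, adjusted p = 1.06e-07). The values are totals over the gene, so the standard and variant isoforms of CD44, which differ between epithelial and mesenchymal cells, were not told apart. An antisense gene overlaps CD44, and whether the counting used strand is not given in the sources, so reads of both could be joined.

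CD24 was almost absent from HMLE-Twist, with 1.55, 0.833 and 0.757 FPKM in the mock libraries, against 344, 299 and 301 FPKM in HMLE-pBp mock. Behind the HMLE-Twist values stood 87, 44 and 55 reads. The mean was 301 times higher in HMLE-pBp, and the log2 fold change was -7.29 (SE 0.135, adjusted p = 3.17e-13). CD24 has near-identical pseudogene copies in the genome, and how the authors' counting shared reads among them is not given in the sources used here, so its level is uncertain.

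EPCAM had 0.821, 0.253 and 0.388 FPKM in HMLE-Twist mock (31, 9 and 19 reads), against 215, 223 and 282 FPKM in HMLE-pBp mock. Its mean was 492 times higher in HMLE-pBp, with a log2 fold change of -7.35 (SE 0.148, adjusted p = 5.97e-13). The first HMLE-Twist mock library was the highest of that group for both EPCAM and CD24.

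PROCR was found in both lines, at 19.2, 22.0 and 27.8 FPKM in HMLE-Twist mock and 66.7, 74.3 and 89.2 FPKM in HMLE-pBp mock. The groups did not overlap, and the log2 fold change was -1.70 (SE 0.157, adjusted p = 8.79e-07).

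Of the retinaldehyde dehydrogenases ALDH1A3 and ALDH1A1, ALDH1A3 was expressed, and mainly in HMLE-pBp. HMLE-Twist mock libraries had 0.139, 0.187 and 0.146 FPKM, from 11 to 15 reads, against 47.9, 45.7 and 39.3 FPKM in HMLE-pBp mock. The ratio of the means was 282 in favour of HMLE-pBp (log2 fold change -5.29, SE 0.0820, adjusted p = 9.49e-14). ALDH1A1 did not pass the filter and was not tested. It had 0, 0 and 0 reads in HMLE-Twist with salinomycin, 0, 0 and 1 reads in HMLE-Twist mock, 1, 0 and 1 in HMLE-pBp with salinomycin, and 4, 1 and 0 in HMLE-pBp mock.

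The stromal markers did not move as a block between the lines. ANPEP was all but confined to HMLE-Twist among these libraries, with 101, 110 and 131 FPKM in the mock group, against 0.214, 0.369 and 0.119 FPKM (16, 23 and 10 reads) in HMLE-pBp mock. Its mean was 487 times higher in HMLE-Twist, and the log2 fold change was 6.54 (SE 0.118, adjusted p = 2.48e-13).

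THY1 had 297, 378 and 349 FPKM in HMLE-Twist mock and 49.2, 53.4 and 58.8 FPKM in HMLE-pBp mock, a log2 fold change of 2.64 (SE 0.119, adjusted p = 1.11e-09). The gene length behind these values, 2397 bases, is shorter than the longest THY1 transcript of the reference annotation, by a ratio of 0.674. That length sets the level of THY1 beside other genes more than it sets the fold change.

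NT5E went the other way. It had 60.1, 40.6 and 52.7 FPKM in HMLE-Twist mock, against 118, 136 and 138 FPKM in HMLE-pBp mock, and was lower in HMLE-Twist by a log2 fold change of -1.35 (SE 0.133, adjusted p = 1.57e-06). Of the stromal trio, therefore, ANPEP and THY1 were higher and NT5E was lower in the line labelled EMT.

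**Figure D1:**
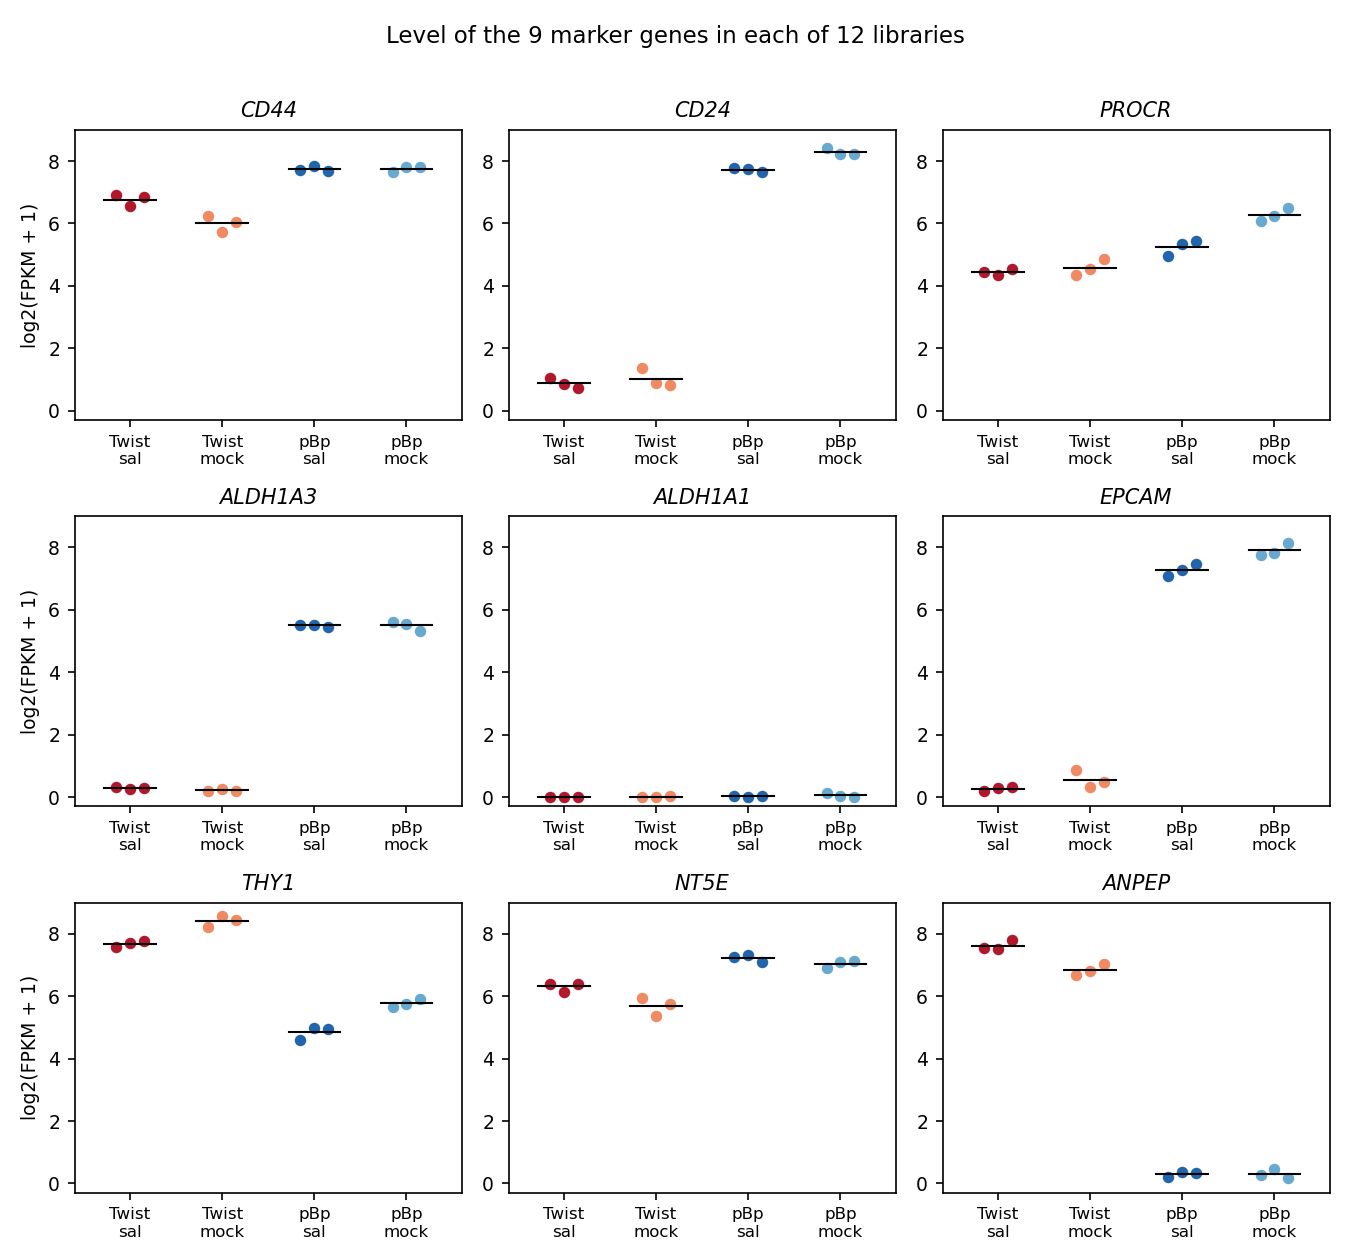
Level of each marker gene as log2(FPKM + 1) in the 12 libraries. Points are libraries, black lines are group means of 3, and "sal" is salinomycin. CD24, ALDH1A3 and EPCAM lie near 0 in HMLE-Twist (Twist) and ANPEP lies near 0 in HMLE-pBp (pBp), while ALDH1A1 lies near 0 in every group.

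The promoters of ALDH1A3 and CD24, low in HMLE-Twist, and of ANPEP, low in HMLE-pBp, are shown because these genes had the widest gaps between the lines among the markers with a promoter in the reference table. RefSeq entries (build GRCh38.p14, 250 bases before to 50 after the start, 5′ to 3′ on the gene's strand) were found for 7 of the 9 genes, 10 entries in all. Capitals mark CANNTG, the E-box letters that basic helix-loop-helix factors such as TWIST1 bind, which read as the same pattern on both strands. For ALDH1A3 the window is chr15:100879581-100879880 (plus strand), for CD24 the entry listed last of its 3, chr6:106973990-106974289 (minus strand), and for ANPEP the entry listed first of its 2, chr15:89814803-89815102 (minus strand).
ALDH1A3: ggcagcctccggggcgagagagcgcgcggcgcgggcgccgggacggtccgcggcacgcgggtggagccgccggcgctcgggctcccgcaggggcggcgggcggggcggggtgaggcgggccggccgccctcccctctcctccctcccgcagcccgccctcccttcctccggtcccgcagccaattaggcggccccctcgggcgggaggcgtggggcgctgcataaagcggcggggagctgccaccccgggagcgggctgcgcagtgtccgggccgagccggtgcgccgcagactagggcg
CD24: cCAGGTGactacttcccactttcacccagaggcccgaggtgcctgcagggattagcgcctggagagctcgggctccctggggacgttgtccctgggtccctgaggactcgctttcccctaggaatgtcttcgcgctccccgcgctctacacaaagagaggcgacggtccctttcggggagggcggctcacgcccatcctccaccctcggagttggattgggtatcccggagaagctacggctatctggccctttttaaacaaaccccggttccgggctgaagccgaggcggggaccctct
ANPEP: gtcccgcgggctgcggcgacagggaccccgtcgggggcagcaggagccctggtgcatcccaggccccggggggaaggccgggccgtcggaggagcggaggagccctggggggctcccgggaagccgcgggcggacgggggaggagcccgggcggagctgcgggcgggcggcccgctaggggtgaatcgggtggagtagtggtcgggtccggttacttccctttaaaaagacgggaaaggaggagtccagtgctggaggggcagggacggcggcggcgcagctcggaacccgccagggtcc

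CANNTG occurred once in the CD24 window shown, as CAGGTG at its first bases, and in neither of the other CD24 entries. It occurred 3 times in the ALDH1A1 window and 0 times in those of CD44, PROCR, ALDH1A3, NT5E and ANPEP, both entries of the last included. Of all 35116 promoters of the same length in the table, 68.7% held CANNTG, and 20.6% held CAGGTG or its reverse complement CACCTG, both of which are also CANNTG. Bases G and C made up 81.7% of the ALDH1A3 window, 63.3% of the CD24 window shown, 75.0% of the ANPEP window shown and 40.3% of that of ALDH1A1, with a median of 58.7% over all promoters. These counts describe the letters in these windows and say nothing of binding.

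Salinomycin, an ionophore studied for its action on breast cancer stem cells, was tested for its effect within each line. In HMLE-Twist, CD44, NT5E and ANPEP rose and THY1 fell. These were 4 of the 8 markers tested, 3 higher and 1 lower, where 26.5% of all genes tested were called, 12.9% higher and 13.6% lower.

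ANPEP had 186, 182 and 220 FPKM with salinomycin, against 101, 110 and 131 FPKM in HMLE-Twist mock. All treated libraries lay above all mock libraries, and the log2 fold change was 0.78 (SE 0.118, adjusted p = 0.000596). CD44 had 119, 92.8 and 114 FPKM with salinomycin, against 75.0, 52.2 and 64.5 FPKM in mock, again with no overlap (log2 fold change 0.76, SE 0.128, adjusted p = 0.0012). NT5E had 83.8, 69.8 and 82.4 FPKM with salinomycin, against 60.1, 40.6 and 52.7 FPKM in mock (log2 fold change 0.62, SE 0.133, adjusted p = 0.00458). For both CD44 and NT5E the second library was the lowest in the treated and in the mock group alike.

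THY1 was the marker that fell in HMLE-Twist. It had 190, 206 and 215 FPKM with salinomycin, against 297, 378 and 349 FPKM in mock, with no overlap (log2 fold change -0.74, SE 0.119, adjusted p = 0.000981). Of 15 mesenchymal genes tested, 1 rose, 4 fell and 10 were not called in HMLE-Twist with salinomycin (median log2 fold change 0.01). Those that fell were COL3A1 (-1.62), LUM (-1.05), PDGFRB (-0.73) and DCN (-0.72). The summed level of 15 mesenchymal genes was 5125 to 5862 FPKM with salinomycin and 4238 to 5353 FPKM in mock. Much of that sum was VIM, which averaged 2360 FPKM with salinomycin and 1880 FPKM in mock, and TWIST1, at 897 and 705 FPKM. For 9 basal epithelial genes the sum was 35.8 to 55.0 FPKM with salinomycin and 16.8 to 21.8 FPKM in mock. Of these 9 basal genes 2 rose, 1 fell and 6 were not called (median log2 fold change -0.04). LAMB3 alone averaged 35.1 FPKM with salinomycin and 9.68 FPKM in mock, while KRT5 fell to 0.746 FPKM from 2.78 FPKM. The part of the mesenchymal and basal genes in the changes of the markers was not tested.

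The other markers were not called in HMLE-Twist. PROCR averaged 20.8 ± 1.53 FPKM with salinomycin and 23.0 ± 4.35 FPKM in mock (SD, n = 3 each), and CD24 averaged 0.843 ± 0.216 FPKM and 1.05 ± 0.439 FPKM. ALDH1A3 averaged 0.221 ± 0.0301 FPKM with salinomycin and 0.157 ± 0.0263 FPKM in mock. EPCAM had 0.15, 0.213 and 0.245 FPKM with salinomycin and 0.821, 0.253 and 0.388 FPKM in mock (log2 fold change -0.29, SE 0.148, adjusted p = 0.175). These libraries did not overlap, at 6 to 11 reads with salinomycin and 9 to 31 in mock, and EPCAM was called where the pseudocount was 0.1 in place of 1 (adjusted p = 0.0403). Groups without overlap were found for 6 of the 8 markers in HMLE-Twist and for 40.4% of all genes.

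In HMLE-pBp, PROCR, THY1, EPCAM and CD24 fell with salinomycin, and no marker rose. These were 4 of the 8 tested, where 19.1% of all genes tested were called, 9.75% higher and 9.36% lower. With the replicate number as a block in the model 33.8% of all genes were called, 3912 in place of 2213, and no marker gained or lost its call.

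PROCR had 29.8, 39.6 and 42.6 FPKM with salinomycin, against 66.7, 74.3 and 89.2 FPKM in HMLE-pBp mock. The groups did not overlap, and the log2 fold change of -1.02 (SE 0.157, adjusted p = 0.00114) was the widest of any marker in either line in this fit. THY1 had 23.3, 30.6 and 30.1 FPKM with salinomycin, against 49.2, 53.4 and 58.8 FPKM in mock (log2 fold change -0.93, SE 0.119, adjusted p = 0.000412). THY1 was thus the 1 marker of the 8 tested that was called in both lines, and it was lower with salinomycin in each.

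EPCAM had 136, 153 and 178 FPKM with salinomycin, against 215, 223 and 282 FPKM in HMLE-pBp mock (log2 fold change -0.62, SE 0.148, adjusted p = 0.0139). CD24 had 216, 215 and 202 FPKM with salinomycin, against 344, 299 and 301 FPKM in mock (log2 fold change -0.57, SE 0.135, adjusted p = 0.0129). Neither gene's groups overlapped. Both calls were lost with TPM in place of FPKM (adjusted p = 0.0638 for EPCAM and 0.0643 for CD24) and with a pseudocount of 0.1 (0.14 and 0.0898). That of EPCAM was also lost without the third HMLE-pBp mock library (0.0685) or without the first treated one (0.0607).

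Among general epithelial genes in HMLE-pBp, EPCAM and CLDN4 fell, ESRP1 rose and the other 6 of the 9 were not called. CDH1, the adhesion protein of epithelial junctions, had 165 to 183 FPKM with salinomycin and 158 to 168 FPKM in mock. The summed level of 9 basal epithelial genes was 4190 to 4637 FPKM with salinomycin and 4631 to 4782 FPKM in mock, and 0 of the 9 were called. The part of these genes in the changes of the markers was not tested.

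CD44 had 208, 230 and 206 FPKM with salinomycin and 198, 224 and 221 FPKM in HMLE-pBp mock, overlapping, with a log2 fold change of 0.00 (SE 0.128, adjusted p = 0.997). ALDH1A3 averaged 44.2 ± 0.975 FPKM with salinomycin and 44.3 ± 4.5 FPKM in mock (SD, n = 3 each). NT5E averaged 149 ± 12.6 FPKM with salinomycin and 131 ± 10.6 FPKM in mock (log2 fold change 0.19, SE 0.133, adjusted p = 0.333). ANPEP stayed at 0.143 to 0.288 FPKM with salinomycin and 0.119 to 0.369 FPKM in mock. Groups without overlap were found for 4 of the 8 markers and for 41.5% of all genes.

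**Figure D2:**
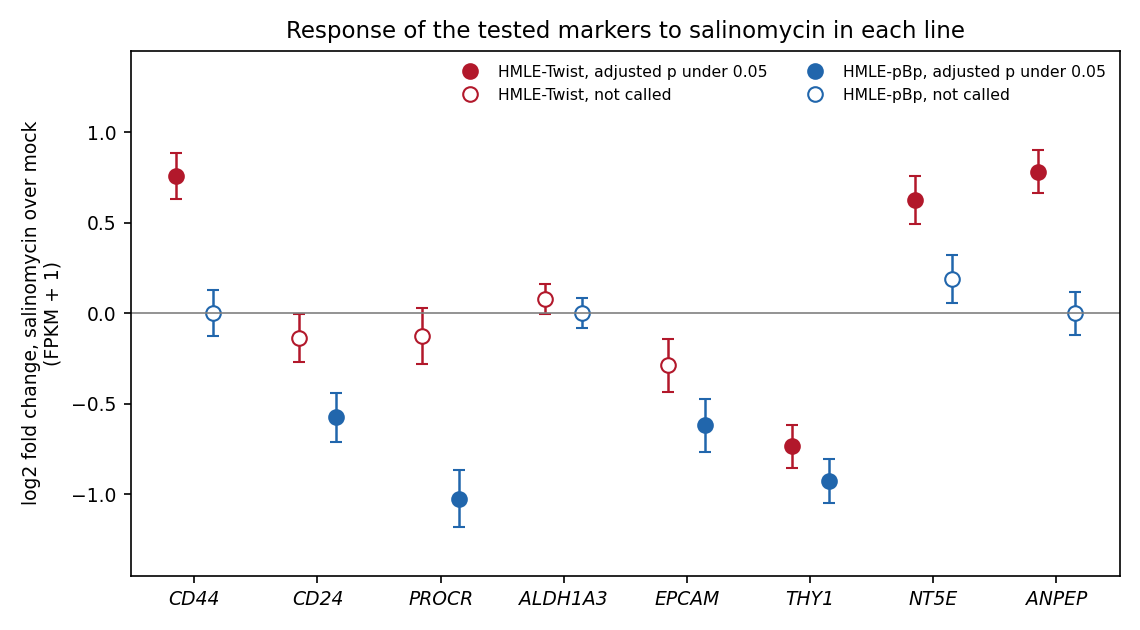
Log2 fold change of the 8 tested markers, salinomycin over mock, in HMLE-Twist (red) and HMLE-pBp (blue), on log2(FPKM + 1). Bars are standard errors of the limma fit over 3 libraries a group, and filled points have an adjusted p under 0.05. CD44, NT5E and ANPEP are called upward in HMLE-Twist at 0.62 to 0.78, PROCR, EPCAM and CD24 are called downward in HMLE-pBp at -1.02 to -0.57, and THY1 is called downward in both.

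The difference of the responses, HMLE-Twist minus HMLE-pBp, was tested as an interaction in the same fit. The limma test called 3 of the 8 markers tested, where 13.9% of all genes were called, 7.1% higher and 6.84% lower (29.5% with the replicate block, 3413 in place of 1614 genes). The response of PROCR was higher in HMLE-Twist than in HMLE-pBp by 0.90 on the log2 scale (SE 0.222, adjusted p = 0.0222). That of CD44 was higher in HMLE-Twist by 0.76 (SE 0.181, adjusted p = 0.0195). The call of ANPEP, 0.78 (SE 0.166, adjusted p = 0.0112), only restates its rise in HMLE-Twist. ANPEP passed the filter through HMLE-Twist alone, and at 0.119 to 0.369 FPKM the pseudocount of 1 holds its log2 response in HMLE-pBp near 0.

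These calls lay close to the threshold. That of CD44 was lost without HMLE-Twist salinomycin library 1 or 3 or HMLE-pBp mock library 2 or 3 (adjusted p = 0.0513 to 0.0543). That of PROCR was lost without HMLE-Twist salinomycin library 1 or 3, HMLE-Twist mock library 2 or HMLE-pBp mock library 3 (0.0521 to 0.0611). The difference of ANPEP, which had 10 to 23 reads in each HMLE-pBp library, was lost with limma voom on the reads (adjusted p = 0.43) and with a pseudocount of 0.1 (0.169).

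For CD24 the difference was 0.44 (SE 0.191, adjusted p = 0.142), and it was called with a pseudocount of 5 (0.0099), with the replicate block (0.0233), with a block for each line and replicate number together (0.0135) and without HMLE-Twist mock library 1 (0.0149). CD24 passed the filter through HMLE-pBp alone, and at 44 to 87 reads the pseudocount narrows its log2 response in HMLE-Twist, so its difference mostly restates the fall in HMLE-pBp. The pseudocount likewise narrows the responses of EPCAM and ALDH1A3 in HMLE-Twist. For NT5E it was 0.43 (SE 0.187, adjusted p = 0.139), called with the same joint block (0.0244) and without HMLE-Twist mock library 1 (0.0482). EPCAM, at 0.33 (adjusted p = 0.299), was called with a pseudocount of 5 (0.0397), while with a pseudocount of 0.1 and with limma voom its difference was -0.23 and -0.45 and was not called. THY1 differed between the lines by 0.19 (SE 0.169, adjusted p = 0.462) and ALDH1A3 by 0.08 (SE 0.116, adjusted p = 0.683).

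With salinomycin in both lines, all 8 tested markers were again called between HMLE-Twist and HMLE-pBp and none overlapped, where 63.6% of all genes were called, 31.5% higher and 32.1% lower, and 69.9% did not overlap. This comparison shares its libraries with those within each line. The log2 fold change of CD44 was -0.99 (SE 0.128, adjusted p = 2.57e-05) with salinomycin and -1.74 in mock. That of PROCR was -0.80 (SE 0.157, adjusted p = 0.000712) with salinomycin and -1.70 in mock. NT5E stood at -0.92 with salinomycin and -1.35 in mock, and ANPEP at 7.32 and 6.54. CD24, EPCAM and ALDH1A3 remained far lower in HMLE-Twist with salinomycin, at -6.85, -7.02 and -5.21.

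**Figure D3:**
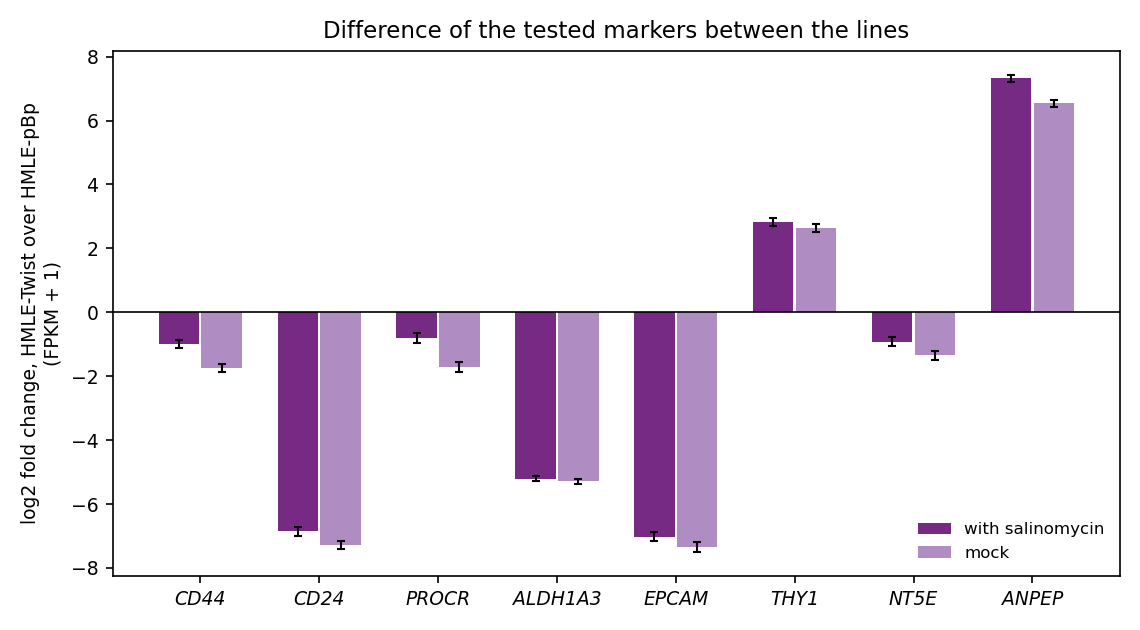
Log2 fold change of the 8 tested markers, HMLE-Twist over HMLE-pBp, with salinomycin (dark) and in mock (light), on log2(FPKM + 1). Bars start at 0, error bars are standard errors of the limma fit over 3 libraries a group, and THY1 and ANPEP are above 0 while the other 6 are below 0 under both treatments.

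CD44 and CD24 are read together when stem-like breast cells are sorted, so the ratio of their levels was taken in each library. It was 110, 117 and 172 in HMLE-Twist with salinomycin and 48.3, 62.6 and 85.3 in HMLE-Twist mock. In HMLE-pBp it was 0.96, 1.07 and 1.02 with salinomycin and 0.575, 0.747 and 0.735 in mock. Every treated library lay above every mock library of its line. An exact permutation test of 3 against 3 libraries gave a two-sided p of 0.1 in each line, the smallest it can give. The mean log2 ratio differed between salinomycin and mock by 1.04 in HMLE-Twist and by 0.58 in HMLE-pBp. In HMLE-Twist its numerator was the gene called, with CD24 at 44 to 87 reads, and in HMLE-pBp its denominator. In bulk RNA, a change in the share of cells of one kind and a change of RNA in each cell cannot be told apart, which applies to every result here.

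**Figure D4:**
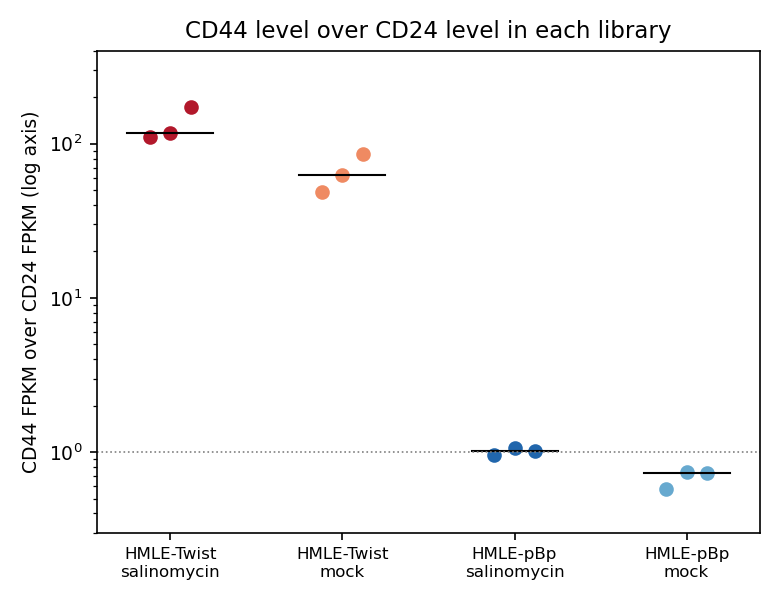
CD44 FPKM over CD24 FPKM in each library, on a log axis. Points are libraries, black lines are medians of 3, and the dotted line marks equal levels. HMLE-Twist libraries lie between 48.3 and 172 and HMLE-pBp libraries between 0.575 and 1.07, with the salinomycin group above the mock group in each line.

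Ordered by mean FPKM, the markers ranked differently in the lines. Such an order, like the ratio of CD44 to CD24, depends on the gene lengths behind the values. The length for CD44, 6678 bases, was 1.17 times its longest transcript in the reference annotation, and the level of CD24 is uncertain as given above. In HMLE-Twist with salinomycin THY1 and ANPEP came first, at 204 ± 12.5 and 196 ± 21.1 FPKM (SD, n = 3), and did not separate by library. CD44, NT5E and PROCR followed, each above the next in every library. In HMLE-Twist mock THY1 stood alone at the top with 341 ± 40.7 FPKM, before ANPEP with 114 ± 15.8 FPKM, and CD44 and NT5E overlapped. In HMLE-pBp with salinomycin CD44 and CD24 overlapped at the top with 215 ± 13.3 and 211 ± 8.11 FPKM, followed by EPCAM and NT5E, which also overlapped. In HMLE-pBp mock CD24 was first with 315 ± 25.3 FPKM, above EPCAM with 240 ± 36.6 FPKM, which overlapped with CD44 at 214 ± 14.4 FPKM.

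The genes most like each marker were found by Pearson's r of log2(FPKM + 1) over the 12 libraries after each line's mean was taken out, as a description of these libraries. CD44 was closest to UGCG, SLC20A1 and EPT1 (r = 0.98 for each), and among the markers to NT5E (r = 0.96) and ANPEP (r = 0.82). NT5E was closest to TMEM57 (r = 0.98), TFRC and MOK (0.97 each). ANPEP was closest to AK5 (0.97), RFX8 and ADAMTSL1 (0.96 each). PROCR was closest to DHX30 (0.99), TNPO2 and CHAF1A (0.98 each), and among the markers to THY1 (0.83) and EPCAM (0.78). THY1 was closest to DHRS11 (0.98), MGST2 and ZDHHC3 (0.97 each), and it ran against NT5E (r = -0.72). CD24 was closest to SLC25A33, PFKM (0.96 each) and IL7R (0.95), EPCAM to GJA1, CACHD1 (0.96 each) and KBTBD8 (0.94), and ALDH1A3 to IL1RN, NPTN-IT1 (0.85 each) and TCP11L1 (0.84). All these values come from the same 12 libraries and so share each library's treatment and scaling. ANPEP had few reads in HMLE-pBp, and CD24, EPCAM and ALDH1A3 in HMLE-Twist, so the libraries of that line are a weak guide to their r. Without the line means taken out, the line gap set the order: CD24, EPCAM and ALDH1A3 had r from 0.995 to 0.999 with one another and from -0.996 to -0.995 with ANPEP.

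The genes that work with these markers were counted in 10 lists. Their medians are log2 fold changes and stand beside medians over all tested genes of -0.01 for salinomycin in either line and 0.00 between the mock-treated lines. Counts of genes called with salinomycin stand beside 12.9% higher and 13.6% lower of all genes tested in HMLE-Twist and 9.75% higher and 9.36% lower in HMLE-pBp, and counts between the mock-treated lines beside 36.3% higher and 37.1% lower. For list genes that passed the filter through 1 line alone, the filter favoured a difference between the lines. These counts are therefore descriptions, and no list was tested as a set. Of the aldehyde dehydrogenase family, 9 of 17 genes were tested. In HMLE-Twist 2 rose and 1 fell with salinomycin (median -0.08), and in HMLE-pBp 1 rose and 1 fell (median 0.05). ALDH1L2, a folate enzyme of mitochondria, averaged 26.9 FPKM with salinomycin and 11 FPKM in mock in HMLE-Twist (adjusted p = 0.000621), and 20.4 and 8.25 FPKM in HMLE-pBp (adjusted p = 0.00118). ALDH18A1, a proline synthesis enzyme, rose in HMLE-Twist by 0.92 and its difference between the lines was called (0.87, adjusted p = 0.00134).

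Genes that handle retinoic acid, the product of ALDH1A3, gave 3 higher and 11 lower of 15 tested in HMLE-Twist mock (median -0.97), against 36.3% higher and 37.1% lower of all genes, and 5 of the 15 passed the filter through HMLE-pBp alone and 1 through HMLE-Twist alone. DHRS3, which turns retinaldehyde back to retinol, averaged 0.110 FPKM in HMLE-Twist mock and 130 FPKM in HMLE-pBp mock (log2 fold change -6.88). CYP26B1, which degrades retinoic acid, averaged 0.0261 and 3.19 FPKM (-2.03). With salinomycin 1 of the 15 rose and 0 fell in HMLE-Twist (median 0.02), and 4 rose and 2 fell in HMLE-pBp (median -0.24). RXRB, a retinoid X receptor, rose in both, by 1.12 in HMLE-Twist (adjusted p = 1.62e-05) and by 0.91 in HMLE-pBp (adjusted p = 9.37e-05).

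Of 15 tested partners of CD44 and hyaluronan, 2 were higher and 10 lower in HMLE-Twist mock than in HMLE-pBp mock (median -0.75). HAS2, a hyaluronan synthase, was higher, at 14.3 FPKM in HMLE-Twist mock and 0.658 FPKM in HMLE-pBp mock (3.19). ESRP1 and ESRP2, splicing factors that favour the epithelial CD44 variants, averaged 0.0705 and 0.179 FPKM in HMLE-Twist mock, against 32.7 and 21.2 FPKM in HMLE-pBp mock (-4.98 and -4.23). With salinomycin 2 rose and 2 fell in HMLE-Twist (median -0.08), and 2 rose and 4 fell in HMLE-pBp (median -0.02). MMP14, a membrane protease that cleaves CD44, rose in HMLE-Twist to 106 FPKM with salinomycin, against 48.0 FPKM in mock (1.16, adjusted p = 0.000132), and the difference from its response in HMLE-pBp was called (0.92, adjusted p = 0.0124).

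Of 11 EPCAM partners tested, 1 was higher and 10 were lower in HMLE-Twist mock (median -5.03), against 36.3% and 37.1% of all genes, and 4 of the 11 passed the filter through HMLE-pBp alone. SPINT2, an inhibitor of the protease matriptase (ST14), averaged 0.230 FPKM in HMLE-Twist mock and 468 FPKM in HMLE-pBp mock, and ST14 itself 0.0881 and 205 FPKM. In HMLE-pBp 0 rose and 4 fell with salinomycin (median -0.21), among them ST14 (-0.65, adjusted p = 0.00935) and the claudin CLDN4 (-0.58, adjusted p = 0.0106). In HMLE-Twist 2 rose and 1 fell (median 0.00).

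Around PROCR, 11 of 18 genes were tested, and 5 were higher and 5 lower in HMLE-Twist mock (median 0.20). The list was of coagulation at the cell surface, but it also held the receptor kinases TYRO3, AXL and MERTK and their ligand GAS6. THBD, the thrombin receptor that activates protein C, averaged 0.0464 FPKM in HMLE-Twist mock and 13.3 FPKM in HMLE-pBp mock, and F3, tissue factor, 19.4 and 295 FPKM. With salinomycin 2 rose and 1 fell in HMLE-Twist (median -0.07), and 0 rose and 3 fell in HMLE-pBp (median -0.11). The 3 that fell in HMLE-pBp were F2R and the receptor kinases TYRO3 (-0.66, adjusted p = 0.00242) and AXL (-0.35, adjusted p = 0.0484). F2R, a thrombin receptor, fell in both lines, by 0.71 on the log2 scale in HMLE-Twist (adjusted p = 0.000159) and by 0.47 in HMLE-pBp (adjusted p = 0.00407). TFPI, an inhibitor of tissue factor, rose in HMLE-Twist to 23.5 FPKM with salinomycin, against 13.4 FPKM in mock (adjusted p = 0.00156).

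Around NT5E, 10 of 17 genes of extracellular nucleotides and adenosine were tested, 4 of them higher and 6 lower in HMLE-Twist mock (median -0.45). ENPP2, autotaxin, averaged 85.7 FPKM in HMLE-Twist mock and 0.0137 FPKM in HMLE-pBp mock (6.42). With salinomycin 1 rose and 1 fell in HMLE-Twist (median 0.03), and 1 rose and 2 fell in HMLE-pBp (median 0.02). ADORA2B, an adenosine receptor, rose to 27.1 FPKM with salinomycin, against 18.0 FPKM in mock, in HMLE-Twist (0.56, adjusted p = 0.00834). In HMLE-pBp it fell to 39.6 FPKM with salinomycin, against 56.8 FPKM in mock (-0.52, adjusted p = 0.0197), and the difference of 1.08 was called (adjusted p = 0.00449).

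Beside ANPEP, 10 of 14 peptidases listed with it were tested, and 3 were higher and 7 lower in HMLE-Twist mock (median -0.66). The list was meant for the cell surface but held ERAP1 and ERAP2, which act in the endoplasmic reticulum. Both were among the 7 lower (-1.58 and -2.05). The neutral endopeptidase MME (CD10) averaged 148 FPKM in HMLE-Twist mock and 3.46 FPKM in HMLE-pBp mock (5.06), and DPP4 (CD26) 11.4 and 0.167 FPKM (3.40). With salinomycin 1 rose and 1 fell in HMLE-Twist, and 0 rose and 1 fell in HMLE-pBp (median -0.09 in each). In HMLE-Twist ERAP1 rose (0.34, adjusted p = 0.0287) and CPM fell (-0.29, adjusted p = 0.0198). The 1 that fell in HMLE-pBp was FAP (-0.49, adjusted p = 0.0171).

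Genes that build the GPI anchor of CD24, THY1 and NT5E gave 3 higher and 20 lower of 25 tested in HMLE-Twist mock (median -0.90), against 36.3% higher and 37.1% lower of all genes. With salinomycin 3 rose and 3 fell in HMLE-Twist (median -0.04), and 1 rose and 1 fell in HMLE-pBp (median -0.13). Of 23 other GPI-anchored proteins tested, 8 rose and 0 fell in HMLE-Twist with salinomycin (median 0.25), where 12.9% of all genes rose and 13.6% fell. In HMLE-pBp 4 rose and 1 fell (median -0.14), where 9.75% of all genes rose and 9.36% fell. The urokinase receptor PLAUR averaged 21.7 FPKM with salinomycin and 9.05 FPKM in mock in HMLE-Twist (1.17, adjusted p = 0.000122), and the complement regulator CD55 12.9 and 6.85 FPKM (0.83, adjusted p = 0.000217). The prion protein gene PRNP rose in both lines, by 0.79 in HMLE-Twist (adjusted p = 0.000259) and by 0.50 in HMLE-pBp (adjusted p = 0.00695). In mock, 4 of the 23 were higher and 18 lower in HMLE-Twist (median -0.79).

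Of 16 other stem and stromal surface markers tested, 3 were higher and 13 lower in HMLE-Twist mock (median -1.47). ITGA6 (CD49f), an integrin of basal and progenitor cells, averaged 9.85 FPKM in HMLE-Twist mock and 310 FPKM in HMLE-pBp mock, and the neurotrophin receptor NGFR 0.249 and 53.2 FPKM. Among the 3 higher, PDGFRB averaged 39.3 FPKM in HMLE-Twist mock and 0.497 FPKM in HMLE-pBp mock (4.74). With salinomycin 2 rose and 3 fell in HMLE-Twist (median 0.03), and 1 rose and 2 fell in HMLE-pBp (median -0.16). The integrin ITGA2 rose in HMLE-Twist to 4.78 FPKM with salinomycin, against 1.82 FPKM in mock (1.02, adjusted p = 0.000143). There LGR4 fell to 6.64 FPKM with salinomycin, against 13.0 FPKM in mock (-0.88, adjusted p = 0.000201). PDGFRB fell to 23.3 FPKM, against 39.3 FPKM in mock (-0.73, adjusted p = 0.00156). ENG (CD105), which is read with THY1 and NT5E on stromal cells, fell in HMLE-pBp to 31.3 FPKM with salinomycin, against 46.3 FPKM in mock (-0.56, adjusted p = 0.0239).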

How the data were processed

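RNA sequencing was made from 12 libraries in 4 groups, from 750 ng of RNA with a stranded mRNA kit and 75 cycles per end, per the labels. The submitters' processing notes name DESeq2 (1.1.0) and the build hg19. Aligner, counting program, strand setting and gene models were not given in the sources used here. Each deposited table holds 1 group and was normalized separately by the authors: FPKM in the mock tables and shrunken log2 values in the salinomycin tables, whose file names say FPKM. Reads were recovered from both. Mock FPKM are whole multiples of a step per gene, which gave reads and a whole gene length for 18893 of 18894 genes. The salinomycin log2 values were inverted through a penalised negative binomial model, and 98.5% (HMLE-Twist) and 96.0% (HMLE-pBp) of values came within 0.1 of a whole read. Left out were 931 genes whose multiple was not settled, no marker among them. FPKM were then rebuilt for all 12 libraries with median-of-ratios size factors. Genes with FPKM of at least 1 in at least 3 libraries, 11583 of 24424, were tested with limma 3.58.1 (R 4.3.3; 4 groups in 1 fit, trended prior) on log2(FPKM + 1), with Benjamini-Hochberg adjustment. Both steps were run on simulated data. The salinomycin values there were made by the same model that inverted them, so this cannot show that the authors' values follow it. The reads for limma were drawn with a fixed spread and no effect shared by same-numbered libraries, unlike the libraries here. Reads without molecular identifiers carry counting error beyond that of molecules.

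Deviations of same-numbered libraries from their group means correlated between the treatments at 0.433 to 0.722 in HMLE-Twist and 0.226 to 0.600 in HMLE-pBp. Across lines, same-numbered libraries correlated at 0.039 to 0.665, with the highest values for replicate 3. Libraries with different numbers correlated at -0.575 to 0.278. The blocked fit is an alternative. The labels call the replicates biological; p-values measure the spread between these cultures. The markers and lists were chosen with earlier results of these data known. All markers are named, and of each list up to 4 called genes with the largest log2 fold change per comparison could be named. Alternatives were TPM, limma voom, other pseudocounts and filters, no gene left out for its length, only the 6 libraries compared, the block, and leaving out each library.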

Additional observations from a re-analysis of the deposited data

Results flagged for a closer look

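A test of the difference between the lines in the response to salinomycin passed the threshold for 3 markers, and for ANPEP it cannot be read as a difference. The log2 response in HMLE-Twist minus that in HMLE-pBp was 0.76 for CD44 (adjusted p = 0.0195, limma), 0.90 for PROCR (adjusted p = 0.0222) and 0.78 for ANPEP (adjusted p = 0.0112). For CD44 and ANPEP HMLE-Twist responded by 0.76 and 0.78, against 0.00 for each in HMLE-pBp. PROCR responded by -0.13 in HMLE-Twist, against -1.02 in HMLE-pBp. ANPEP is near absent from HMLE-pBp, with 10 to 23 reads a library, so a small change there could not be seen at this depth. Its reads there summed to 50 with salinomycin and 49 in mock. The difference for ANPEP restates the rise in HMLE-Twist.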

How the results depend on the processing

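Over the 5 comparisons, 817 of 856 values of single markers kept their sign and their side of the threshold under the alternatives, among them all 168 between the mock-treated lines and all 168 between the lines with salinomycin. Another 15 values, none called in either fit, changed sign, for CD24 and PROCR in HMLE-Twist, for CD44, ALDH1A3 and ANPEP in HMLE-pBp and for the difference of EPCAM. No called marker changed sign. Alternatives such as leaving out a library outside the comparison return the same log2 fold change, so a kept sign there was fixed in advance. With the replicate block 3912 genes were called in HMLE-pBp with salinomycin and 3413 for the difference of responses, in place of 2213 and 1614. With a block for each line and replicate together, chosen after seeing the data, these were 4265 and 3782, and 4743 in HMLE-Twist in place of 3071, with 5 markers called for the difference in place of 3. These blocks changed no call of a marker other than those given for CD24 and NT5E. A pseudocount of 5 also gave 5 markers for the difference. In HMLE-pBp, TPM and a pseudocount of 0.1 each gave 2 markers called in place of 4. TPM split the genes called for the difference into 828 higher and 515 lower, in place of 822 and 792. The cause of these shifts was not tested.

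Leaving out 1 library gave 2187 to 3401 genes in HMLE-Twist with salinomycin, with 4 markers each time. In HMLE-pBp it gave 1131 to 3060 genes and 3 to 4 markers, with 1131 genes without mock library 3, 1335 without mock library 2 and 1217 without treated library 1. For the difference it gave 786 to 2368 genes and 1 to 5 markers. The 5 lowest counts were 818 and 812 without HMLE-Twist salinomycin library 1 and 3, 895 without HMLE-Twist mock library 2, and 890 and 786 without HMLE-pBp mock library 2 and 3, with 1 marker left without HMLE-Twist salinomycin library 1 or 3 or HMLE-pBp mock library 3. ALDH1A1, at 0 to 4 reads a library, is below what this depth can compare, and CD24, EPCAM and ALDH1A3 in HMLE-Twist rest on 6 to 87 reads a library.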
